A study of Mus musculus with 18 samples.

Results

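Solute carrier transporter genes were followed through the development of invariant natural killer T (iNKT) cells in the mouse thymus. The members are genes with an array probe set that carries a single gene symbol, where that symbol begins with Slc and a digit and the probe set exceeded the median of its array on 3 or more of the 18 arrays. The brightest such probe set stood for each gene. Of 361 Slc genes with a probe set of their own, 225 passed, among 13034 genes of any kind that passed the same filter, and 136 Slc genes did not pass. Those 136 are not counted as changed or unchanged. The few of them called when every probe set was tested are named only at the end. Because the members were chosen on their measured level, that they were detected is no result. Among them 173 lay above the median on all 18 arrays, 42 on 6 to 17 arrays and 10 on 3 to 5 arrays. No member had its arrays above the median in 1 group only (0 members). Slc22a6 and Slc6a5 passed by the smallest margin, with a third-highest value 0.0052 and 0.012 log2 units above the array median, and Slc6a12 and Slc16a9 missed by the smallest, at -0.017 and -0.025. By family, 219 members fell into 12 substrate groups, and 6 carry an Slc symbol without being transporters (Slc9a3r1, Slc9a3r2, Slc4a1ap, Slc7a6os, Slc2a4rg-ps and Slc6a19os).

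The iNKT cell is a T cell with a nearly fixed receptor for lipids presented by CD1d. The cells came from the thymus of C57BL/6 mice, either wild type (WT) or Cd4Cre Mst1 fl/fl (Mst1KO), in which Cre driven by Cd4 removes Stk4 (which encodes MST1, a kinase of the Hippo pathway) from the stage at which thymocytes begin to make CD4. Both genotypes were sorted into S1, S2 and S3, all positive for TCRb and the CD1d-PBS57 tetramer and negative for CD24. S1 cells lacked CD44 and NK1.1, S2 cells had CD44 and lacked NK1.1, and S3 cells had both. The mice's age is not given in the labels. Each of the 6 groups had 3 Affymetrix MoGene-2_0 arrays, so few that precision is limited throughout. The design names 3 mice of each genotype without tying replicate numbers to mice, and a p-value here therefore reflects only how far these arrays spread, part of which may be technical. Values are log2 expression after robust multi-array averaging (RMA), a difference is on the log2 scale with its SE (n = 3 against 3), and a level is a mean with its SD (n = 3). A gene is called changed when its limma p, adjusted over all 13034 genes by the Benjamini-Hochberg method, is under 0.05.

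Solute carriers move amino acids, sugars, nucleosides, ions, metals, vitamins and lipids across membranes, mostly as facilitators or as exchangers and cotransporters driven by ion gradients. Most sit in the plasma membrane, while the Slc25 family lies in the inner mitochondrial membrane and the Slc35 family carries nucleotide sugars into the Golgi apparatus and the endoplasmic reticulum. In T cells their levels are known to follow the demand for nutrients: dividing cells take up more amino acids, nucleosides and glucose than resting cells, and thymic iNKT cells divide mainly at the early stages and become quiescent as they mature.

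Correlations across probe sets within a group were 0.976 to 0.986. Stk4, the targeted gene, had Mst1KO minus WT differences of -0.29 ± 0.11, -0.35 ± 0.11 and -0.39 ± 0.11 from S1 to S3 without being called (adjusted p = 0.34, 0.173 and 0.0767). The sources used here do not say whether its probes lie in the deleted part, so it does not check the deletion. Defining iNKT genes were high in every group, with Zbtb16 group means of 10.15 to 11.77, and the gate genes Cd44 and Klrb1c (NK1.1) rose at each stage step in both genotypes. The third gate gene, Cd24a, also rose from S2 to S3 in both genotypes, although every stage was sorted as negative for CD24. Markers of other cells moved with stage too. Of 10 measured macrophage and dendritic cell markers, 4 rose from S2 to S3 in WT and 5 in Mst1KO, and 6 rose and 1 fell from S1 to S2 in Mst1KO, and the mean of the list lay between 5.45 and 5.69 on the WT S1 arrays and between 6.37 and 6.74 on the Mst1KO S3 arrays. Of 4 conventional T cell markers, 3 fell at each step in WT, the list mean going from 9.36 at S1 to 7.11 at S3. B cell and erythroid lists had 1 measured gene each, with group means of 4.66 to 5.30 beside array medians of 4.81 to 4.93. The part of these markers in the stage changes below was not tested. Since the samples are bulk RNA of sorted cells, fewer cells of a type and less RNA per cell cannot be told apart.

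Members with the highest signal in their group, as the mean over 18 arrays, were Slc36a4 for amino acids (10.83), Slc25a5 for mitochondrial carriers (10.80), Slc9a9 for inorganic ions (10.76), Slc44a2 for lipids and choline (10.27), Slc35a4 for nucleotide sugars (10.05), Slc50a1 for sugars (9.46), Slc39a9 for metals (9.01), Slc14a1 for organic ions and urea (8.25), Slc29a1 for nucleosides (8.20), Slc48a1 for vitamins and heme (8.16), Slc16a10 for the carboxylate family (7.69) and Slc15a4 for peptides (7.51). These are readings of different probe sets, not per length, so they name the brightest probe set of a group and do not rank the amounts of RNA. The median of the members was 6.47, beside 6.86 for all genes tested.

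The largest number of members changed between S2 and S3. In WT 28 members rose, 12.4% of the members beside 10.4% of all genes tested, and 31 fell, 13.8% beside 13.2%. In Mst1KO 26 rose, 11.6% beside 8.01%, and 21 fell, 9.33% beside 9.18%. These shares are near those of all genes, which are also the background for the counts of each substrate group. The median S3 minus S2 difference of the members was -0.0033 in WT and 0.0011 in Mst1KO, and over all genes -0.00098 and -0.026. The split depended on the scaling. Repeated quantile normalization gave 26 higher and 34 lower in WT and 24 and 28 in Mst1KO. Centring each array on its median gave 20 and 33 in WT and 23 and 21 in Mst1KO. Between S1 and S2 fewer members moved: in WT 1 rose (0.444% of the members) beside 2.7% of all genes and 7 fell (3.11%) beside 1.14%, and in Mst1KO 9 rose (4%) beside 3.77% and 4 fell (1.78%) beside 2.9%. The 3 arrays of each group did not overlap for 53 of the 59 members called from S2 to S3 in WT, for all 47 called in Mst1KO, and for all 8 and 13 called from S1 to S2. Of all called genes the same held for 95.4% and 98.6% at the later step and for 98.4% and 99.0% at the earlier one. When each array was left out in turn, 31 of the 59 WT calls and 30 of the 47 Mst1KO calls from S2 to S3 held in all 6 fits. The 21 WT calls lost in 3 or more fits were those of Slc14a1, Slc15a3, Slc16a10, Slc16a13, Slc22a5, Slc24a3, Slc25a12, Slc25a13, Slc25a20, Slc2a8, Slc30a5, Slc35c1, Slc35e4, Slc36a4, Slc38a1, Slc3a1, Slc43a2, Slc44a2, Slc4a2, Slc5a11 and Slc6a6, and the 10 Mst1KO calls those of Slc12a2, Slc16a6, Slc25a5, Slc35c1, Slc35g1, Slc37a2, Slc38a1, Slc39a11, Slc49a4 and Slc7a6. From S1 to S2 the WT count fell from 8 to 5 without WT S1 replicate 1, without WT S1 replicate 3 or without WT S2 replicate 1, and 3 of the 8 calls held in all 6 fits.

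The WT and Mst1KO steps from S2 to S3 share no arrays. Of the members that rose, 16 were called in both, 57.1% of the WT list and 61.5% of the Mst1KO list, beside 51.5% and 66.9% for all genes that rose. Of those that fell 17 were, 54.8% and 81.0%, beside 49.4% and 71.0%. No member was called in opposite directions (0). Another 26 members were called in WT only and 14 in Mst1KO only, which does not show that their change differed: the difference of the steps was tested as an interaction, and no member was called in it.

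**Figure D1:**
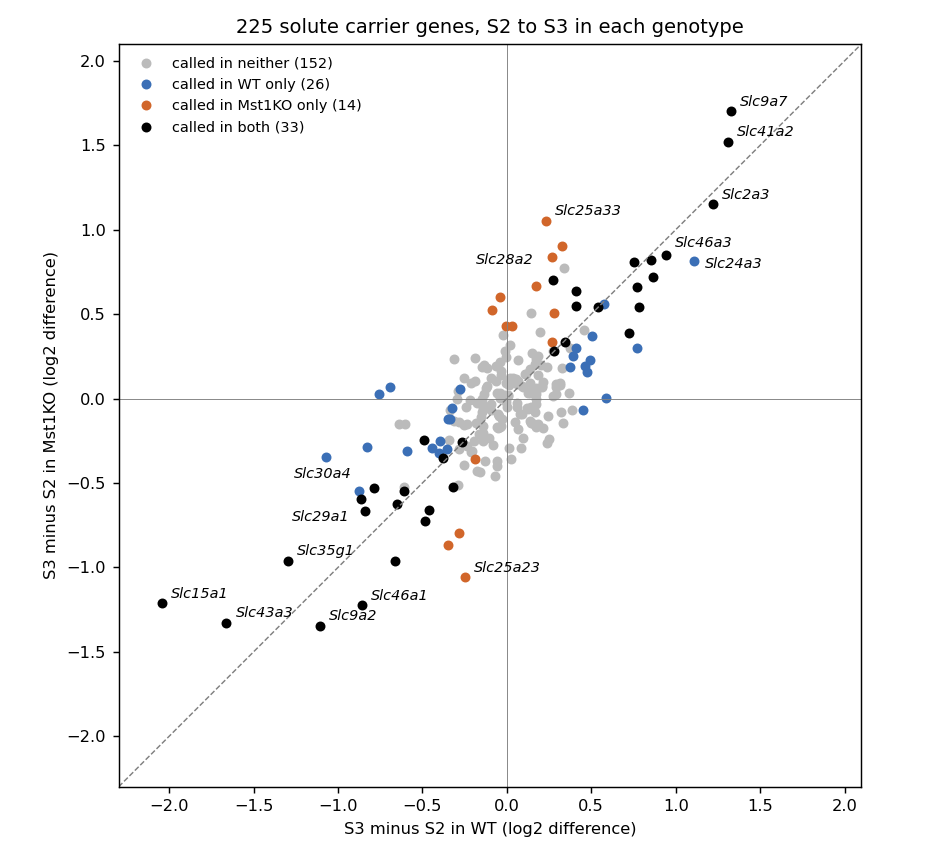
Each point is 1 of the 225 solute carrier genes, with its S3 minus S2 log2 difference in WT (horizontal axis) and in Mst1KO (vertical axis, same scale); the dashed line marks equal change. The 33 members called in both genotypes (black) moved in the same direction in each, from Slc15a1 at the left, which lies above the line, to Slc9a7 at the upper right; Slc25a23 lies below the line.

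**Figure D2:**
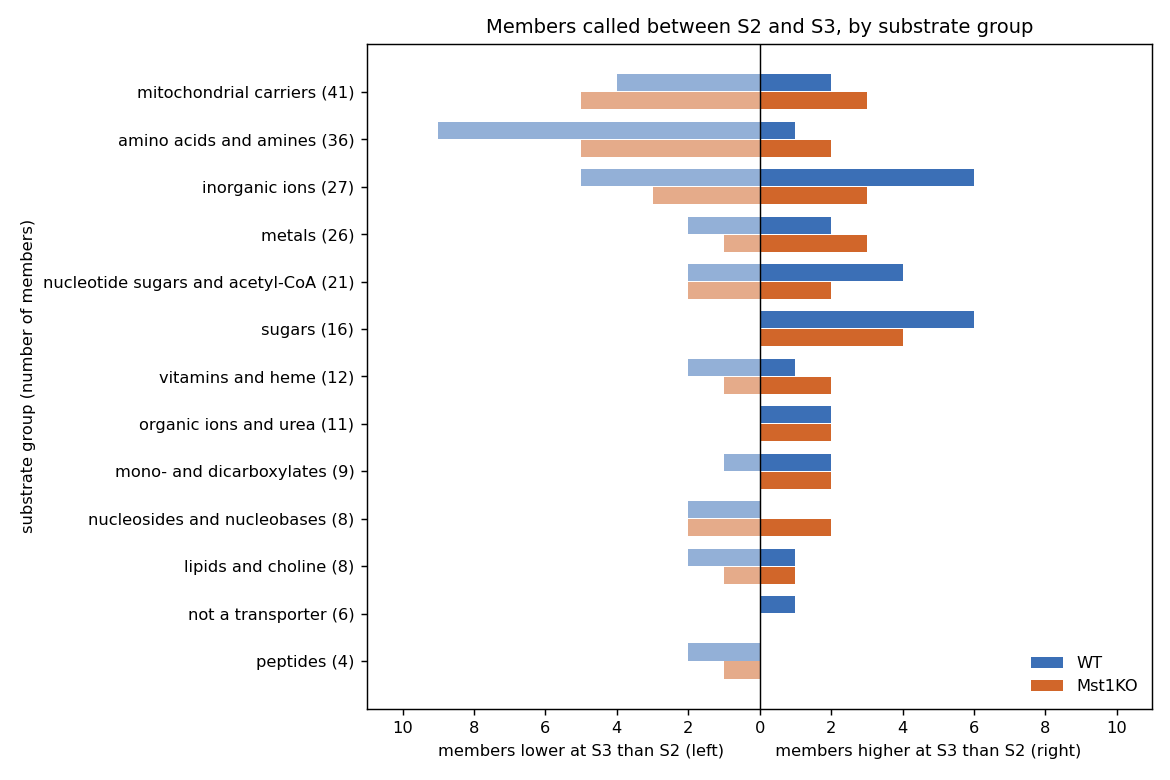
Bars count the members called lower (left, pale) or higher (right, solid) at S3 than at S2 in WT (blue) and Mst1KO (orange), for each substrate group with its number of members. All called sugar carriers lie on the right, 6 in WT and 4 in Mst1KO, and most called amino acid carriers on the left, 9 of 10 in WT and 5 of 7 in Mst1KO.

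Among the 4 peptide carriers the data turn on Slc15a1 (probe set 17309557), the proton-coupled carrier of short peptides best known from the gut lining. In WT its 3 S1 arrays read 8.98, 8.99 and 8.87, its S2 arrays 5.86, 6.85 and 5.63, and its S3 arrays 4.05, 4.23 and 3.94. In Mst1KO they read 8.49, 8.62 and 8.63 at S1, then 5.27, 6.03 and 5.46 at S2 and finally 4.56, 3.98 and 4.58 at S3. Every S1 array was above every S2 array and every S2 array above every S3 array, in both genotypes, and the S3 arrays all lay below their array's median, where a further fall would be compressed. The S2 minus S1 difference was -2.83 ± 0.25 in WT, 7.12-fold lower (adjusted p = 7.3e-06), and -2.99 ± 0.25 in Mst1KO, 7.96-fold lower (adjusted p = 1.85e-06). From S2 to S3 it fell by a further 2.04 ± 0.25 in WT and 1.21 ± 0.25 in Mst1KO (adjusted p = 1.38e-05 and 0.00277), and the difference of these steps, 0.83 ± 0.36, did not pass (adjusted p = 0.384). These were the largest falls among the members at both steps in WT and at the first step in Mst1KO. Slc15a4, an endolysosomal carrier of histidine and peptides, stayed between 7.31 and 7.64 on all 18 arrays. Slc15a3, its relative in phagocytes, and Slc15a2 had other patterns and are given separately.

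Among 8 carriers of nucleosides and nucleobases, Slc29a1 and Slc43a3 fell from S2 to S3 in both genotypes. Slc29a1 (probe set 17345202), the main equilibrative nucleoside transporter of the plasma membrane, read 8.76, 8.71 and 8.99 at S1, then 8.20, 8.30 and 8.39 at S2 and finally 7.42, 7.57 and 7.31 at S3 in WT. The Mst1KO arrays read 8.79, 8.77 and 8.95, then 8.22, 8.09 and 8.28, then 7.60, 7.40 and 7.80. The stages did not overlap in either genotype. Its differences were -0.52 ± 0.11 and -0.87 ± 0.11 in WT and -0.64 ± 0.11 and -0.60 ± 0.11 in Mst1KO (adjusted p = 0.015, 2.83e-05, 0.0021 and 0.00148), and with Slc15a1 it was 1 of 2 members that fell at both steps in both genotypes. The first WT call was lost without WT S2 replicate 1 (adjusted p = 0.0762) and without WT S1 replicate 3 (adjusted p = 0.0655).

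Slc43a3 (probe set 17372644), which carries purine nucleobases, fell more from S2 to S3 than from S1 to S2. Its WT arrays read 9.16, 9.07 and 9.11 at S1, then 8.45, 8.75 and 8.90 at S2 and finally 7.17, 6.74 and 7.22 at S3. Its Mst1KO arrays read 8.99, 8.59 and 9.10, then 8.05, 8.60 and 8.28, then 6.59, 7.11 and 7.26. All S3 arrays lay below all S2 arrays, whereas S1 and S2 overlapped in Mst1KO and not in WT. It fell by 1.66 ± 0.19 from S2 to S3 in WT and by 1.33 ± 0.19 in Mst1KO (adjusted p = 6.57e-06 and 0.000107), and its S2 minus S1 differences of -0.41 ± 0.19 and -0.58 ± 0.19 were not called. Slc28a2, a sodium-coupled concentrative nucleoside carrier, rose by 0.84 ± 0.13 from S2 to S3 in Mst1KO (adjusted p = 0.000303), and differed by 0.27 ± 0.13 in WT (adjusted p = 0.17). Its near-identical neighbour Slc28a2b was also a member, above the median on 3 arrays. Over this step Slc28a2b differed by -0.60 ± 0.33 in WT and -0.15 ± 0.33 in Mst1KO, neither called. Whether the probes of the pair share signal was not tested. Slc29a4, a carrier of monoamines, rose by 0.52 ± 0.12 in Mst1KO and differed by -0.09 ± 0.12 in WT. In all, 2 of the 8 members of this group fell in WT, and 2 fell and 2 rose in Mst1KO.

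Promoter sequence was read for the members whose promoter RefSeq gives: 175 of 225, with 225 promoter windows between them, each 250 bases before to 50 after a gene start on GRCm38.p6. The windows were searched on both strands for the letters CACGTG (E box, bound by MYC, TFE and USF proteins), TGATGNAAT (amino acid response element) and AGGTGTGA (T-box element, bound by T-bet, a factor of S3 cells). CACGTG was in 34 of the 225 member windows (15.1%), in 7.15% of all 32851 windows and in 9.76% of the 12803 windows of the genes tested. TGATGNAAT was in 1 member window (0.444%, beside 0.965% of all and 0.437% of those of the genes tested) and AGGTGTGA in 3 (1.33%, beside 1.28% and 0.93%). Shown are 3 members named for their change that hold CACGTG (in capitals), 1 that fell at both steps in both genotypes, 1 that fell from S2 to S3 in both genotypes and 1 that rose from S2 to S3 in Mst1KO. Slc29a1 lies at chr17:45595197-45595496, Slc25a13 at chr6:6217124-6217423 and Slc25a33 at chr4:149774218-149774517, all on the minus strand and written 5′ to 3′ along the gene.
Slc29a1: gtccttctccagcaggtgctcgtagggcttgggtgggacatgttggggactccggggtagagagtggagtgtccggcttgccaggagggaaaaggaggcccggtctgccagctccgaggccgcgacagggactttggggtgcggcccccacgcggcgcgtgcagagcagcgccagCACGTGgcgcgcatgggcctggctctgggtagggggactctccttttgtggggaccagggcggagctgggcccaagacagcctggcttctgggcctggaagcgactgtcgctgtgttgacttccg
Slc25a13: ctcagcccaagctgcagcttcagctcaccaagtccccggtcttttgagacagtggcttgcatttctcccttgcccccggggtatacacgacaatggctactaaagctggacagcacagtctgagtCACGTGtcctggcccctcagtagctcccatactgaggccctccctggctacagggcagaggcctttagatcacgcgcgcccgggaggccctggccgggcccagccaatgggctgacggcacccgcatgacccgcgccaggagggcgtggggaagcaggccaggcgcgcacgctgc
Slc25a33: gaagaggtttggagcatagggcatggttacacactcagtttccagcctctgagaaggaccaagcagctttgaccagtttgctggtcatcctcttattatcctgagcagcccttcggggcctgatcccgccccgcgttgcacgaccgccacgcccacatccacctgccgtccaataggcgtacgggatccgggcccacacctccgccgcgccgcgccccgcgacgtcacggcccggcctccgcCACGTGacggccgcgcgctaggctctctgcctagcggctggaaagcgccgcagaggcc
None of these 3 windows holds either other motif. In them the first base of the match lies -75, -125 and -8 bases from the start site. The 3 windows shown were a choice among those with a match, so the directions of their genes are no result about the letters. A match is a description of the letters, not a binding site.

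**Figure D3:**
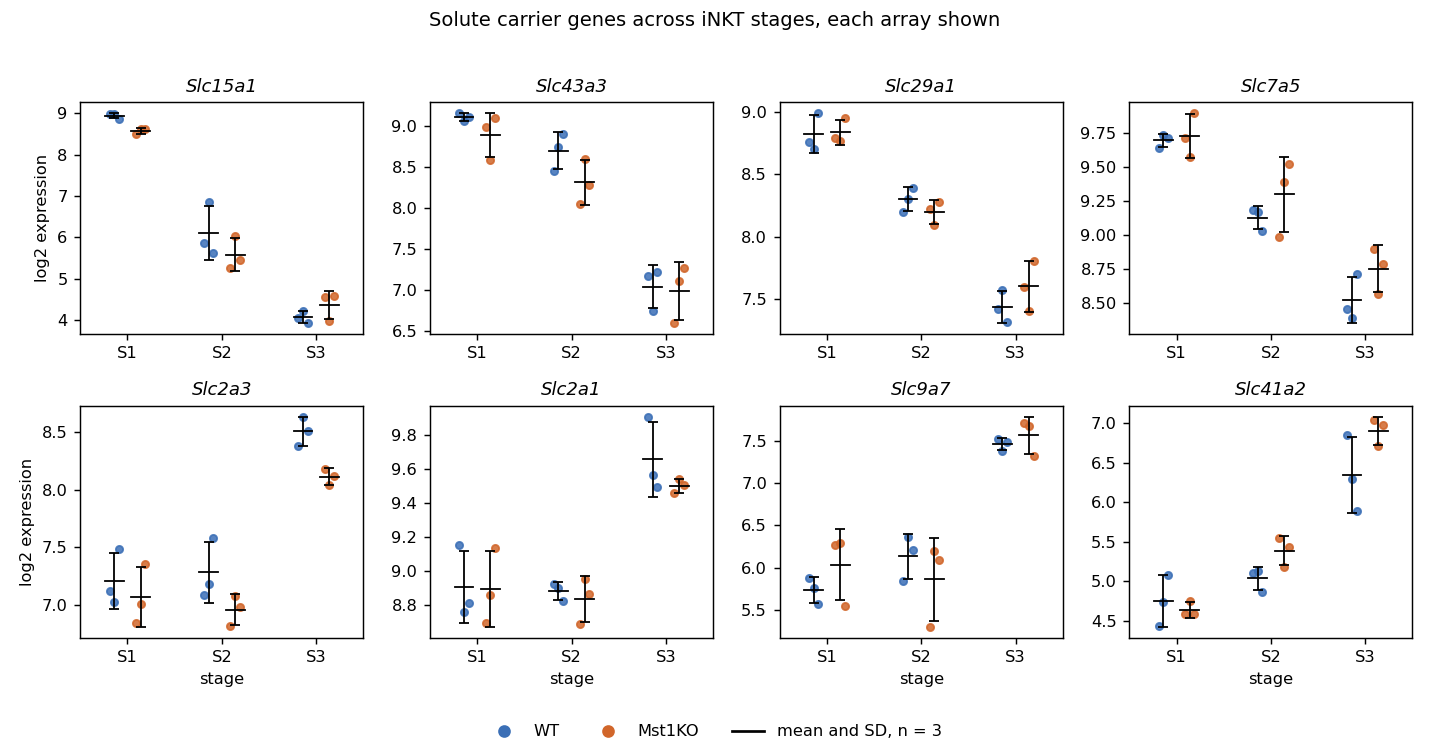
Log2 expression of 8 members on each array at S1, S2 and S3 (points: WT blue, Mst1KO orange; black bars: mean and SD, n = 3). The upper row falls with stage, from about 9 to 4 for Slc15a1, and the lower row rises at S3, for Slc2a3 from group means of 6.96 to 7.29 up to 8.11 and 8.50.

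Amino acid and amine carriers were the largest plasma membrane group, with 36 members. From S2 to S3 in WT 9 fell and 1 rose, beside 13.2% and 10.4% of all genes, and in Mst1KO 5 fell and 2 rose, beside 9.18% and 8.01%, while the median of the group was 0.0087 and -0.064. Slc7a5 (probe set 17513641), the light chain of the exchanger for large neutral amino acids, read 9.64, 9.73 and 9.71 at S1, then 9.18, 9.17 and 9.03 at S2 and finally 8.46, 8.39 and 8.71 at S3 in WT. In Mst1KO it read 9.71, 9.57 and 9.90, then 8.99, 9.39 and 9.52, then 8.90, 8.56 and 8.79. The 3 stages did not overlap within either genotype. It fell by 0.57 ± 0.13 and then 0.61 ± 0.13 in WT (adjusted p = 0.0242 and 0.00323) and by 0.55 ± 0.13 from S2 to S3 in Mst1KO (adjusted p = 0.00934), its first Mst1KO difference of -0.43 ± 0.13 having an adjusted p of 0.0696. The first WT call was lost in every fit that left out an array of these groups except WT S2 replicate 2 (adjusted p up to 0.0886).

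Slc3a2, the heavy chain that carries Slc7a5 to the surface, was highest at S3. It read 9.69, 9.71 and 9.81 at S2 and 10.08, 9.97 and 9.96 at S3 in WT, and 9.61, 9.46 and 9.63 then 10.04, 9.84 and 9.82 in Mst1KO. S3 lay above S2 without overlap in both, with a rise of 0.33 ± 0.10 called in Mst1KO (adjusted p = 0.023) and a difference of 0.27 ± 0.10 in WT that missed the threshold (adjusted p = 0.0548). Other carriers that fell from S2 to S3 in both genotypes were Slc7a6, a further partner of Slc3a2 (-0.38 ± 0.09 and -0.35 ± 0.09), Slc43a2, a facilitator of branched-chain amino acids (-0.48 ± 0.15 and -0.72 ± 0.15), Slc38a1, a sodium-coupled glutamine carrier (-0.27 ± 0.08 and -0.26 ± 0.08), and Slc7a4 (-0.84 ± 0.18 and -0.67 ± 0.18). For Slc38a1 the WT call was lost in 4 of the 6 fits that left out an array and the Mst1KO call in all 6 (adjusted p up to 0.0688 and 0.103). Slc7a1, which imports arginine and lysine, fell by 0.40 ± 0.10 in WT and differed by -0.25 ± 0.10 in Mst1KO (adjusted p = 0.101). Slc1a5, an exchanger of glutamine and other neutral amino acids, stayed between 10.31 and 10.67 on all 18 arrays. Slc1a4, its close relative, fell by 0.49 ± 0.13 from S1 to S2 in WT, a dim member above the median on 4 arrays, and the call was lost in 5 of 6 fits that left out an array (adjusted p up to 0.176), with no filter on low values and with only the groups compared. Slc36a4 fell by 0.35 ± 0.11 from S2 to S3 in WT and differed by -0.12 ± 0.11 in Mst1KO, where a second, dimmer probe set of the gene gave -0.90, so the probe sets disagreed on its size.

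Of 16 sugar carriers, 6 rose and 0 fell from S2 to S3 in WT, where 10.4% of all genes rose and 13.2% fell, and 4 rose and 0 fell in Mst1KO, where 8.01% rose and 9.18% fell. The group medians were 0.20 and 0.15. Centring each array on its median left 4 rises in WT. Slc2a3 (probe set 17470597), the high-affinity glucose transporter of lymphocytes and neurons, read 7.09, 7.19 and 7.59 at S2 and 8.38, 8.63 and 8.50 at S3 in WT. In Mst1KO it read 6.82, 7.08 and 6.99, then 8.18, 8.04 and 8.12. All S3 arrays lay above all earlier arrays, with a rise of 1.22 ± 0.15 in WT, 2.33-fold (adjusted p = 1.6e-05), and of 1.15 ± 0.15 in Mst1KO, 2.22-fold (adjusted p = 4.84e-05). Slc2a1 (probe set 17417844), the glucose transporter of most cells, read 8.93, 8.90 and 8.83 at S2 and 9.91, 9.56 and 9.50 at S3 in WT, and 8.69, 8.96 and 8.87 then 9.46, 9.54 and 9.50 in Mst1KO. It rose by 0.77 ± 0.13 and 0.66 ± 0.13 (adjusted p = 0.000388 and 0.00219), without overlap. Slc37a2, a sugar phosphate exchanger of the endoplasmic reticulum, rose by 0.86 ± 0.22 and 0.72 ± 0.22, and Slc2a8, an intracellular hexose carrier, by 0.41 ± 0.14 and 0.64 ± 0.14. Slc50a1, a Golgi sugar carrier, rose by 0.39 ± 0.11 in WT and differed by 0.25 ± 0.11 in Mst1KO. From S1 to S2 no sugar carrier was called in either genotype (0 of 16).

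In the Slc16 family and its neighbours, 9 members carry lactate, other carboxylates or, for Slc16a10, aromatic amino acids. Slc16a6 rose by 0.72 ± 0.12 from S2 to S3 in WT and by 0.62 ± 0.12 and then 0.39 ± 0.12 at the 2 steps in Mst1KO (adjusted p = 0.000323, 0.00454 and 0.0378), with S3 arrays of 8.28, 8.37 and 8.36 in WT and 7.88, 8.16 and 8.05 in Mst1KO. Slc16a10 rose at the later step by 0.76 ± 0.21 and 0.81 ± 0.21 (adjusted p = 0.0159 and 0.0142). Its Mst1KO arrays lay below the WT arrays at S3, 7.70, 7.87 and 7.99 against 8.53, 8.70 and 8.58, and that difference of -0.75 ± 0.21 missed the threshold (adjusted p = 0.0639). Slc16a1, the lactate and pyruvate carrier, had group means of 7.36, 6.73 and 6.38 along the WT stages and 7.48, 6.96 and 6.72 along the Mst1KO stages, and no step was called.

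Inorganic ion carriers held the member with the largest rise from S2 to S3 in each genotype. Slc9a7 (probe set 17540465), a sodium and proton exchanger of the Golgi and endosomes, read 5.84, 6.36 and 6.21 at S2 and 7.52, 7.38 and 7.49 at S3 in WT, and 5.30, 6.20 and 6.10 then 7.71, 7.68 and 7.31 in Mst1KO. No S3 array overlapped the earlier stages, and the rises were 1.33 ± 0.22 and 1.70 ± 0.22, 2.51-fold and 3.25-fold (adjusted p = 0.000323 and 4.67e-05). Slc26a11, a sulfate carrier, rose by 0.85 ± 0.15 and 0.82 ± 0.15, and Slc8b1, the mitochondrial sodium and calcium exchanger, by 0.78 ± 0.13 and 0.54 ± 0.13. Slc24a3, a potassium-dependent sodium and calcium exchanger, rose by 1.11 ± 0.34 in WT, but its S3 arrays spread over 6.83, 5.78 and 4.93 and the call was lost without WT S3 replicate 1 or 2 and without WT S2 replicate 2 or 3 (adjusted p = 0.144, 0.0546, 0.0739 and 0.0922). Slc20a1, a phosphate importer, rose by 0.48 ± 0.10 in WT.

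Among ion carriers that fell, Slc12a2, the cotransporter of sodium, potassium and chloride that swells cells, went from 7.02, 7.10 and 7.11 at S1 to 6.09, 6.36 and 6.40 at S2 and 5.85, 5.48 and 5.16 at S3 in WT. It fell by 0.79 ± 0.14 at each WT step (adjusted p = 0.00312 and 0.000525) and by 0.53 ± 0.14 from S2 to S3 in Mst1KO (adjusted p = 0.0149). Its Mst1KO S1 arrays of 6.45, 6.40 and 6.46 lay below all WT S1 arrays, and that difference of -0.64 ± 0.14 missed the threshold (adjusted p = 0.0626). Slc12a4, a potassium and chloride cotransporter, fell by 0.87 ± 0.25 from S2 to S3 in Mst1KO, and Slc9b2, a sodium and proton exchanger, by 0.87 ± 0.23 in WT. Slc26a10 fell by 0.76 ± 0.14 from S1 to S2 in WT. Over the group of 27, 6 rose and 5 fell in WT and 3 rose and 3 fell in Mst1KO at the later step.

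Of 26 metal carriers, Slc41a2 (probe set 17243525), a magnesium carrier, moved most. Its WT arrays read 5.11, 5.13 and 4.87 at S2 and 6.85, 6.29 and 5.89 at S3, and its Mst1KO arrays 4.59, 4.76 and 4.58 at S1, then 5.55, 5.19 and 5.43 at S2 and finally 7.04, 6.71 and 6.97 at S3. S3 lay above S2 without overlap in both genotypes, with rises of 1.31 ± 0.20 and 1.52 ± 0.20 (adjusted p = 0.000127 and 4.5e-05). Its S1 to S2 rise in Mst1KO, 0.75 ± 0.20, was lost in every fit that left out an array of these groups except Mst1KO S2 replicate 2 (adjusted p up to 0.124). Slc11a2, an importer of ferrous iron, rose at both Mst1KO steps, by 0.57 ± 0.12 and 0.51 ± 0.12 (adjusted p = 0.00769 and 0.00766), and differed by 0.37 ± 0.12 and 0.28 ± 0.12 in WT, where neither step was called. Slc30a4, a zinc exporter into vesicles, fell by 1.07 ± 0.26 from S2 to S3 in WT and differed by -0.34 ± 0.26 in Mst1KO. Slc39a13, a zinc importer, rose by 0.45 ± 0.12 in WT, and Slc30a9 by 0.60 ± 0.12 in Mst1KO.

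Mitochondrial carriers were the largest group, with 41 members, of which 2 rose and 4 fell from S2 to S3 in WT and 3 rose and 5 fell in Mst1KO. Slc25a5 and Slc25a4, which exchange ADP for ATP, fell in both genotypes. Slc25a5, the form of dividing cells, read 10.91, 10.89 and 11.07 at S2 and 10.50, 10.47 and 10.43 at S3 in WT and 10.93, 10.83 and 10.91 then 10.69, 10.66 and 10.58 in Mst1KO, falls of 0.49 ± 0.08 and 0.25 ± 0.08 (adjusted p = 0.000243 and 0.0454), without overlap. The Mst1KO call was lost in all 6 fits that left out an array, with an adjusted p of up to 0.143. Slc25a4, the form of muscle and heart, fell by 0.32 ± 0.09 and 0.53 ± 0.09. Slc25a20, which exchanges carnitine for acylcarnitine, fell by 0.46 ± 0.14 and 0.66 ± 0.14, and Slc25a13, an aspartate and glutamate carrier, by 0.66 ± 0.21 and 0.96 ± 0.21, while its counterpart Slc25a12 rose by 0.49 ± 0.17 in WT. In Mst1KO Slc25a33, a carrier of pyrimidine nucleotides, rose by 1.05 ± 0.21 and Slc25a2, an ornithine carrier, by 0.90 ± 0.20, where WT differed by 0.23 ± 0.21 and 0.33 ± 0.20. Slc25a1, the citrate carrier, rose by 0.39 ± 0.10 from S1 to S2 in Mst1KO, a call lost in 4 of 6 such fits (adjusted p up to 0.0976). Slc25a23 is described with the genotypes.

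The 21 carriers of nucleotide sugars and their relatives divided, 4 rising and 2 falling in WT and 2 and 2 in Mst1KO from S2 to S3. Slc35g1 fell in both genotypes, by 1.30 ± 0.29 and 0.96 ± 0.29, with 1 low WT S3 array (7.69, 6.36 and 7.97), and its Mst1KO call was lost without Mst1KO S3 replicate 1 or 3 and without Mst1KO S2 replicate 2 or 3 (adjusted p up to 0.0968). Slc35a1, which brings CMP-sialic acid into the Golgi, fell by 0.69 ± 0.17 in WT, and Slc35c1, its counterpart for GDP-fucose, rose by 0.35 ± 0.11 and 0.34 ± 0.11, calls that were lost in 4 and in all 6 of the fits that left out an array (adjusted p up to 0.0936 and 0.115). Slc35e1 rose by 0.41 ± 0.09 and 0.55 ± 0.09. Slc35f2 fell by 0.80 ± 0.15 in Mst1KO.

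Vitamin carriers included both folate importers. Slc46a1, the proton-coupled importer, fell by 0.86 ± 0.15 from S2 to S3 in WT and by 1.22 ± 0.15 in Mst1KO (adjusted p = 0.000329 and 1.51e-05), and Slc19a1, the reduced folate carrier, fell by 0.40 ± 0.12 in WT. Slc46a3, a lysosomal relative, read 4.92, 5.30 and 5.22 at S1, then 5.66, 5.87 and 5.92 at S2 and finally 6.51, 6.78 and 6.99 at S3 in WT, so that no stage overlapped the next, and it was the only member that rose at both WT steps, by 0.67 ± 0.15 and 0.94 ± 0.15. The first of these calls was lost without WT S1 replicate 1, without WT S2 replicate 3 (adjusted p up to 0.0815) and with only the groups compared in the fit. In Mst1KO it rose at the later step, by 0.85 ± 0.15. Slc23a4 fell by 0.87 ± 0.19 from S1 to S2 in Mst1KO. Among 8 carriers of lipids and choline, Slc44a2, a choline transporter, rose by 0.28 ± 0.08 in each genotype from S2 to S3, and Slc44a1, its relative, fell by 0.52 ± 0.11 from S1 to S2 in WT. Of 11 carriers of organic ions and urea, 2 rose in each genotype from S2 to S3 and 0 fell: Slc14a1 in both, Slc22a5, the carnitine importer, in WT (0.58 ± 0.20), and Slc17a9 in Mst1KO (0.67 ± 0.15). Both WT calls were unstable to leaving out an array, that of Slc14a1 lost in all 6 fits (adjusted p up to 0.0801) and that of Slc22a5 in 4 (adjusted p up to 0.143). Among the 6 members that are no transporters, Slc9a3r1, a scaffold that binds ion exchangers, rose by 0.37 ± 0.09 in WT.

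In Mst1KO 3 members, Slc9a2, Slc27a6 and Slc46a1, were called higher from S1 to S2 and lower from S2 to S3. The share of all genes with this pattern was not counted, so the number is no result about the members. Both steps use the same 3 Mst1KO S2 arrays, so high readings on these arrays favour both calls at once. In WT all 3 were also called lower from S2 to S3, while their S1 to S2 step was not called. The pattern is therefore not shown to be particular to Mst1KO. Slc9a2, a sodium and proton exchanger of epithelia, read 4.71, 4.57 and 4.65, then 6.67, 5.76 and 5.75, then 4.74, 4.87 and 4.52 in Mst1KO, and 4.55, 4.19 and 4.29, then 5.09, 5.49 and 4.82, then 4.04, 4.34 and 3.69 in WT. S2 was above both other stages in both genotypes. However, Slc9a2 exceeded its array's median on only 5 arrays, all of them S2 arrays. It passed the filter only through the stage at which it peaked, so the peak is also what made it a member. It rose by 1.42 ± 0.23 and fell by 1.35 ± 0.23 in Mst1KO (adjusted p = 0.000824 and 0.000501), and in WT differed by 0.79 ± 0.23 (adjusted p = 0.0664) and fell by 1.11 ± 0.23 (adjusted p = 0.00172). Slc27a6, a fatty acid transport protein, rose by 1.05 ± 0.17 and fell by 0.63 ± 0.17 in Mst1KO and fell by 0.65 ± 0.17 at the later WT step. Slc46a1 rose by 0.72 ± 0.15 before its fall in Mst1KO, and Slc35c2 rose by 0.70 ± 0.14 from S1 to S2. The interaction of the S1 to S2 step was not called for these 4 (adjusted p = 0.777, 0.646, 0.671 and 0.509).

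Slc15a3, a peptide and histidine carrier of phagocyte endolysosomes, read 4.01, 4.82 and 4.04 at S1 and 5.68, 5.23 and 5.40 at S2 in Mst1KO, a rise of 1.15 ± 0.25 (adjusted p = 0.00884) in a member above the median on 9 arrays. In WT it fell by 0.83 ± 0.25 from S2 to S3 (adjusted p = 0.0219). The arrays overlapped there, and the call was lost in 3 of 6 fits that left out an array. Slc40a1, the iron exporter abundant in macrophages, was not called: it read 4.03, 5.20 and 4.86 at S2 and 4.24, 6.03 and 6.13 at S3 in Mst1KO, against 4.73, 4.01 and 3.71 at S3 in WT, a difference of 1.31 ± 0.41 (adjusted p = 0.0979). The macrophage and dendritic cell list moved from S1 to S2 in Mst1KO, its mean going from 5.55 to 5.63 on the S1 arrays to 6.05 to 6.13 at S2. Over this step Lyz2 rose by 2.25 ± 0.34 and C1qb by 1.18 ± 0.23. Adgre1, also on the list, had a mean of 4.29 at S2, below every array median. The part of these markers in the change of Slc15a3, Slc11a2 and the other S1 to S2 rises in Mst1KO was not tested.

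**Figure D4:**
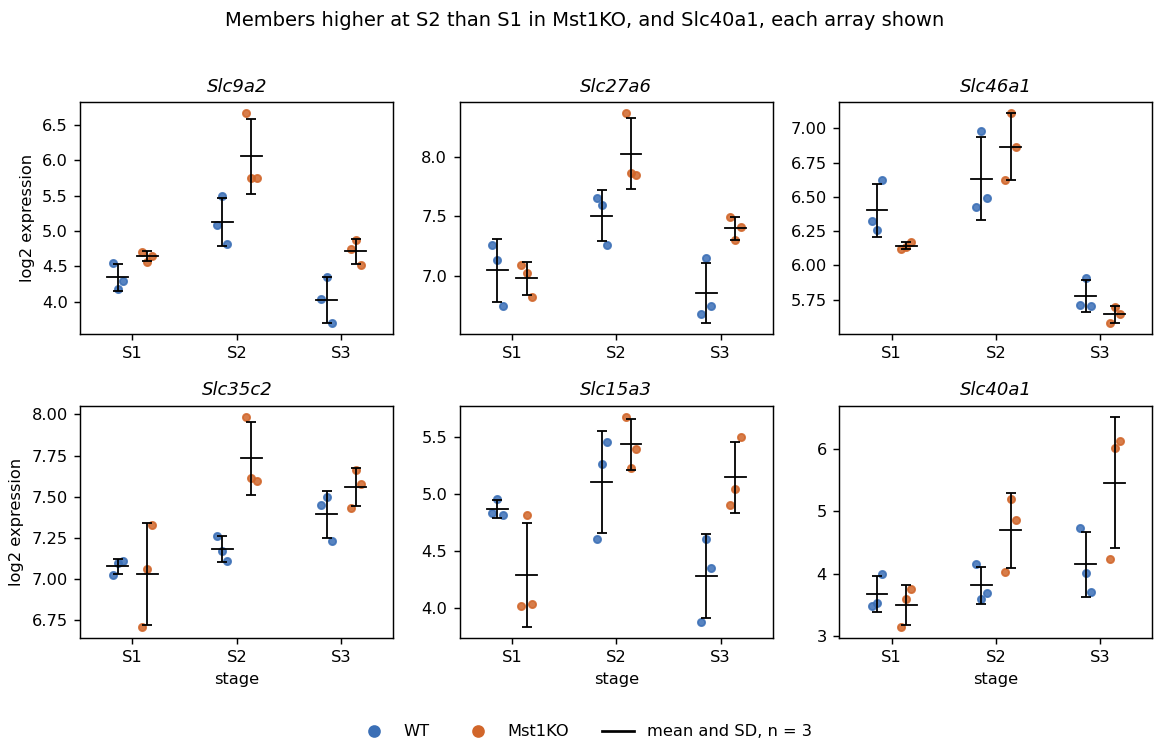
Log2 expression on each array at S1, S2 and S3 (WT blue, Mst1KO orange; black bars: mean and SD, n = 3) for 5 members that rose from S1 to S2 in Mst1KO and for Slc40a1, which was not called. Slc9a2, Slc27a6 and Slc46a1 are highest at S2, and 2 of the 3 Mst1KO S3 arrays of Slc40a1 lie above 6.

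Between the genotypes few members were called, which does not show that the others were equal. At S1 no member was called, 0 higher beside 0.261% of all genes and 0 lower beside 0.0691%, and 22 members (9.78%) had an unadjusted limma p under 0.05 beside 11.2% of all genes. At S2 0 were higher in Mst1KO beside 0.714% of all genes, and 2 were lower beside 0.453%. There 27 members (12%) had an unadjusted limma p under 0.05 beside 13.4% of all genes. At S3 2 were higher beside 2.35% and 1 lower beside 1.05%, and 42 members (18.7%) had an unadjusted limma p under 0.05 beside 16.7%. Repeated quantile normalization turned the S3 split to 1 higher and 2 lower. These comparisons share their arrays with the stage steps above.

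At S2 the lower members were Slc14a1 and Slc38a2. Slc14a1 (probe set 17355565), the urea transporter of red cells and the kidney, read 8.30, 8.34 and 8.33 in WT and 7.82, 7.83 and 8.08 in Mst1KO, a difference of -0.41 ± 0.09 (adjusted p = 0.0293). At S3 both genotypes stood near 8.6, with WT arrays of 8.59, 8.60 and 8.60 and Mst1KO arrays of 8.62, 8.67 and 8.54, and its rise from S2 to S3 was 0.27 ± 0.09 in WT and 0.70 ± 0.09 in Mst1KO. Slc38a2 (probe set 17320928), a sodium-coupled carrier of small neutral amino acids induced by amino acid shortage, read 9.18, 9.25 and 9.24 in WT and 8.72, 8.89 and 8.96 in Mst1KO, a difference of -0.37 ± 0.09 (adjusted p = 0.0477). In Mst1KO it fell by 0.47 ± 0.09 from S1 to S2 and rose by 0.43 ± 0.09 from S2 to S3, and in WT it differed by -0.08 ± 0.09 and 0.03 ± 0.09. The arrays of the genotypes did not overlap at S2 for either gene, which held for 100% of all genes called there. Neither call was stable to leaving out 1 array: Slc38a2 lost it in all 6 fits (adjusted p up to 0.175) and Slc14a1 in 5 of 6, every one except that without Mst1KO S2 replicate 3 (adjusted p up to 0.118). Both also lost it with each array centred on its median, with no filter on low values and with only the groups compared in the fit. The 2, 2 and 1 members called when WT S2 replicate 1, 2 or 3 was left out were other members.

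At S3 Slc25a23 (probe set 17346461) was lower and Slc17a9 and Slc4a2 were higher in Mst1KO. Slc25a23, a calcium-regulated carrier that exchanges ATP-magnesium for phosphate across the inner mitochondrial membrane, read 8.05, 7.84 and 7.81 in WT and 6.91, 7.30 and 7.02 in Mst1KO. The genotypes did not overlap at S3, whereas at S2 they stood at 8.15 ± 0.10 and 8.14 ± 0.04. The S3 difference was -0.82 ± 0.13, 1.77-fold lower (adjusted p = 0.0021), and it was called in all 6 fits that left out an array, with an adjusted p of up to 0.0152. Within Mst1KO it fell by 1.06 ± 0.13 from S2 to S3 (adjusted p = 2.73e-05), against -0.25 ± 0.13 in WT (adjusted p = 0.198).

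Slc17a9 (probe set 17380850), which loads ATP into vesicles and lysosomes, read 7.08, 7.37 and 6.77 in WT S3 and 7.90, 7.83 and 7.71 in Mst1KO S3, a difference of 0.74 ± 0.15 (adjusted p = 0.013). The call was lost without WT S3 replicate 3 or without Mst1KO S3 replicate 1, with an adjusted p of up to 0.0571. It was also lost with only the groups compared in the fit. Slc4a2, a chloride and bicarbonate exchanger, read 7.0, 6.94 and 6.86 in WT and 7.32, 7.33 and 7.36 in Mst1KO, a difference of 0.40 ± 0.10 (adjusted p = 0.0293). This call was lost in every fit that left out an array of these groups except that without WT S3 replicate 1 (adjusted p up to 0.102). It was also lost with no filter on low values, with repeated quantile normalization and with only the groups compared in the fit. Neither gene's genotypes overlapped at S3, and the same held for 98.4% of all genes called there. Of 3 measured genes listed as gamma-delta T cell markers, 2 were higher in Mst1KO at S3, beside 2.35% of all genes. These were Blk by 2.39 ± 0.30 and Cd163l1 by 1.03 ± 0.12, and the third was not called. All groups were sorted as positive for TCRb and the CD1d-PBS57 tetramer, so these readings do not name a cell type. The mean of these markers lay between 5.96 and 6.47 on the WT S3 arrays and between 7.37 and 7.55 on the Mst1KO S3 arrays. Their part in these 3 differences was not tested.

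**Figure D5:**
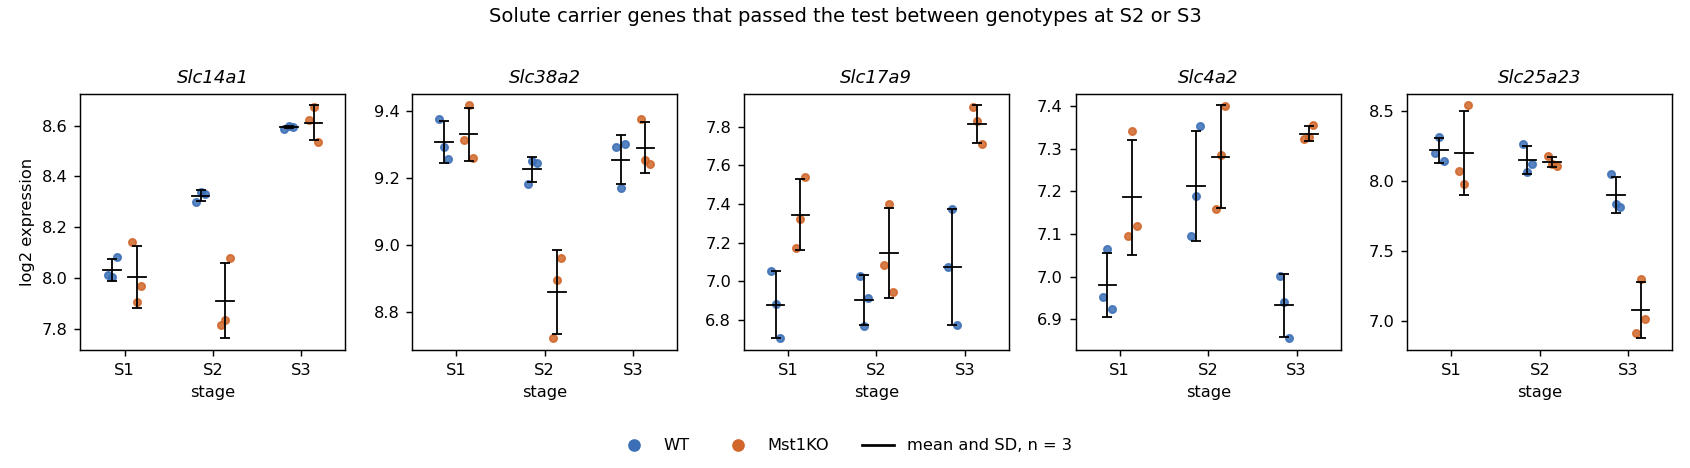
Log2 expression on each array for the 5 members called between genotypes (WT blue, Mst1KO orange; black bars: mean and SD, n = 3; each panel has its own scale). Slc14a1 and Slc38a2 separate at S2, and Slc17a9, Slc4a2 and Slc25a23 at S3, where the Slc25a23 means are 7.90 in WT and 7.08 in Mst1KO.

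No member's stage step was called different between the genotypes. For the S1 to S2 step 0 members were higher beside 0.0153% of all genes and 0 lower beside 0%, with 20 members (8.89%) at an unadjusted limma p under 0.05 beside 6.77% of all genes. The lowest p belonged to Slc25a4 (0.43 ± 0.12, adjusted p = 0.4), Slc13a3, a dicarboxylate carrier (0.59 ± 0.17, adjusted p = 0.4), and Slc38a2 (-0.39 ± 0.12, adjusted p = 0.468). For the S2 to S3 step 0 were higher beside 0.261% and 0 lower beside 0.107%, with 25 members (11.1%) at an unadjusted p under 0.05 beside 11.2% of all genes. Here the lowest p belonged to Slc25a23 (-0.81 ± 0.19, adjusted p = 0.0914), Slc29a4 (0.61 ± 0.16, adjusted p = 0.14) and Slc30a9 (0.64 ± 0.17, adjusted p = 0.149). Without Mst1KO S3 replicate 1, Slc30a9 was called in this test (0.78, adjusted p = 0.0498).

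Lists of genes that act beside the members were read over the S2 to S3 step, at which 10.4% of all genes rose and 13.2% fell in WT and 8.01% rose and 9.18% fell in Mst1KO. Of 14 accessory proteins and regulators of solute carriers, 5 rose and 1 fell from S2 to S3 in WT and 4 rose and 1 fell in Mst1KO. Emb, an escort protein of lactate carriers, fell by 4.13 ± 0.24 in WT and by 2.07 ± 0.24 in Mst1KO, with group means at S3 of 5.62 and 8.29, and it was higher in Mst1KO at S3 by 2.68 ± 0.24 (adjusted p = 6.56e-06), the difference of its S2 to S3 steps being called (2.06 ± 0.34, adjusted p = 0.0114). Txnip and Arrdc3, arrestin family proteins that take glucose transporters and receptors from the surface, rose by 1.20 ± 0.14 and 2.16 ± 0.23 in WT and by 0.74 ± 0.14 and 1.61 ± 0.23 in Mst1KO, over the step at which Slc2a1 and Slc2a3 rose. Sgk1, a kinase that acts on ion and amino acid carriers, rose by 1.56 ± 0.15 and 1.75 ± 0.15. Of 28 genes of amino acid sensing, 4 rose and 1 fell at this step in each genotype, among them Atf4, a transcription factor of amino acid shortage (0.37 ± 0.08 and 0.38 ± 0.08), and Rragd, a subunit of the lysosomal Rag complex (1.11 ± 0.22 and 1.32 ± 0.22). Of 25 measured solute carriers under other symbols, 5 rose and 2 fell in WT and 1 rose and 2 fell in Mst1KO. Nipal1, a magnesium carrier, fell by 2.55 ± 0.14 and 1.32 ± 0.14 and was higher in Mst1KO at S3 by 1.12 ± 0.14, and Flvcr1, an exporter of heme and choline carrier, fell by 0.70 ± 0.13 and 0.47 ± 0.13.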

How the data were processed

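Sorted thymic iNKT cells of 6 groups were measured on 18 arrays, 3 per group. Per the labels' protocols, small amounts of total RNA were amplified and labelled with NuGEN kits, and per the submitters' processing notes the authors made the deposited log2 values by RMA in Affymetrix Expression Console 1.1. RMA subtracts background and forces the arrays onto a shared distribution, which hides a change of total RNA and compresses differences of dim probe sets. The summary level and annotation are not given in the sources used here.

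Probe sets with 1 gene symbol in the platform annotation were kept where they lay above their array's median on at least 3 of 18 arrays, and the brightest stood for its gene (13034 genes). Of 18 Slc probe sets with several symbols, 11 passed that level and were left out of the counts. A 6-group model was fitted to all genes with limma 3.58.1 in R 4.3.3, p-values were adjusted over all genes by the Benjamini-Hochberg method within each of 9 comparisons, and the models were tested on simulated data. Symbols and promoters came from RefSeq (GRCm38.p6), which held all 225 members.

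The members and all gene lists were chosen with earlier results of these data known, and substrate groups follow Slc families. Named members were up to 8 called with the largest increase and decrease per comparison, the 3 of lowest p in each interaction, the brightest of each group, those next to the filter, and others with their values where their group is described. Alternatives changed the filter, scaling, variance model, probe set rule, samples in the fit and replicate block, or left out each array.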

Additional observations from a re-analysis of the deposited data

How the results depend on the processing

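No called member changed direction under any alternative tried. Between genotypes at S1, where none was called, a filter at the 75th percentile gave 1 and a variance trend with a robust fit gave 2. At S2, with 2 called, no filter, centring each array on its median and fitting only the groups compared each gave 0, the 75th percentile filter 4 and the variance trend 5. At S3, with 3 called, the 75th percentile filter gave 9 and the variance trend 8. There no filter gave 2, and fitting only the groups compared gave 3, of which 1 was among the 3 called. Fitting only the groups compared, which leaves fewer arrays to estimate the spread, gave 5 in place of 8 for S1 to S2 in WT and 32 in place of 59 for S2 to S3 in WT. The 75th percentile filter tests fewer genes; the cause of the other shifts was not tested. Leaving out each array gave 0 to 0 at S1, 0 to 2 at S2 and 2 to 4 at S3 between genotypes, 5 to 9 and 42 to 50 for the WT steps, 10 to 15 and 38 to 43 for the Mst1KO steps, and 0 to 0 and 0 to 1 for the interactions. Of the values of the members with the largest called changes in each comparison and the lowest p in each interaction, 947 kept their side of the threshold, 70 lost the call and 1 gained it.

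The labels do not say what the replicate numbers stand for, and the rule for pairing was not met: deviations from group means correlated at -0.053 to 0.21 between arrays of 1 genotype and number, 3 of 18 pairs at 0.12 to 0.21, and at -0.051 to 0.083 between arrays of 1 stage and number. With the replicate block as a fixed term the counts were 0, 2 and 4 between genotypes, 11 and 61 for the WT steps, 14 and 45 for the Mst1KO steps and 0 for both interactions, and with the block of genotype and number as a random term 0, 2, 3, 9, 62, 14, 49, 0 and 0 in the same order. Under the fixed block Slc38a2 was no longer called at S2. With 3 arrays a group and no scanner files used here, signal over background could not be set per probe set, and differences of members near the array median are the least certain.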

Other observations

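Slc15a2, a high-affinity peptide carrier, was not called in any comparison, but its WT values followed the replicate number at every stage. WT replicate 2 read 5.30 at S1, 4.96 at S2 and 5.01 at S3, while WT replicate 1 read 6.62, 6.52 and 6.43 and WT replicate 3 read 6.20, 6.17 and 6.17. The 9 Mst1KO arrays lay between 5.48 and 5.97.

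Some Slc genes that did not pass the filter on low values were called when every probe set was tested. These were Slc7a11 between genotypes at S1, Slc35f3 and Slc35f5 from S2 to S3 in WT, Slc4a1, Slc7a11 and Slc7a14 from S1 to S2 in Mst1KO, and Slc22a20 from S2 to S3 in Mst1KO, out of 136 such genes. Their probe sets lay above the array median on fewer than 3 arrays, and the share called among all genes outside the filter was not counted. Of the 11 Slc probe sets with several symbols that passed, 0 were called between genotypes and 2 were lower at S3 than at S2 in WT. Of all 1021 such probe sets, 0.196% to 1.27% were called between genotypes. From S2 to S3 in WT 19.7% of them were called in either direction.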
